A study of Mus musculus with 18 samples.

Results

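The genes of the lysosome, of the proton pump that acidifies it and of autophagy were followed in mouse mammary carcinoma cells exposed to the Hsp90 inhibitor 17-DMAG and in cells selected to survive it. The 37 genes were taken by symbol from 24421 genes listed. They comprise 12 subunit genes of the vacuolar ATPase (V-ATPase), 15 genes of lysosomal proteins, 8 autophagy genes and the 2 transcription factor genes Tfeb and Tfe3. Of these, 36 were among the 13507 genes tested. The remaining gene, Atp6v0c, which encodes the proteolipid of the pump's membrane ring, was listed at 0 in every library and could not be tested. Whether this 0 reflects its expression or the counting of reads was not tested.

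Lysosomes are acidic organelles in which hydrolases such as the cathepsins break down proteins, lipids and sugars delivered by endocytosis or autophagy. The V-ATPase pumps protons into them, with a cytosolic V1 sector that hydrolyzes ATP and a membrane V0 sector that carries the protons. In autophagy, a membrane studded with proteins of the LC3 and GABARAP families closes around cytoplasmic cargo, which receptors such as p62 (Sqstm1) hold, and the closed vesicle then fuses with a lysosome. TFEB and TFE3 are related transcription factors that bind the CLEAR element in many promoters of lysosomal and autophagy genes, and their activity is known to be set largely by phosphorylation and location in the cell rather than by mRNA level.

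The cells were the 4T1 mouse mammary carcinoma line and its 17-DMAG-resistant populations 4T1R1 and 4T1R2, each selected separately from 4T1 by repeated exposure to the drug. The labels call them populations, and do not say whether they are clonal. Each was sequenced untreated and after 17-DMAG, in 3 biological replicates per group and 6 groups. The sample records give 1.5 µM 17-DMAG for 48 h before RNA extraction, whereas the series text gives 2 h, and they describe the selection as 3 rounds at 1.5 µM for 48 h, whereas the series text gives 1 µg/ml for 24 h. The time of exposure is therefore not settled by the labels, and every response below is named only as that to 17-DMAG.

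Totals ran from 23354461 to 55094630 counts per library. The counts of replicates 1 and 2 of treated 4T1 were more alike than those of any of the 17 other pairs within a group. The chi-square per gene was 1.1, against 2.04 to 2.22 in those pairs. Of the counts from 1 to 12, 65.6% to 70.8% were even in each library, and the cause was not tested. With such an excess of even counts, the chi-square from sampling alone is not known, so 2.04 to 2.22 is not shown to exceed it. The pair was averaged and counted as 1 sample, so that this group has n = 2 and the others n = 3. The identifiers of the 4T1R1 libraries belong to another number series than those of 4T1 and 4T1R2. The labels do not say what that series marks, and whatever it marks cannot be told apart from a difference of 4T1R1 from either population, while each drug response lies within 1 series. The 6 epithelial markers (Epcam, Cdh1, Krt7, Krt8, Krt18 and Krt19) had at least 673 counts each in every library. Their sum was 76486 to 77562 normalized counts in untreated 4T1, 51355 to 53924 in 4T1R1 and 59351 to 60581 in 4T1R2. The keratins and Epcam had lower means in both resistant populations, Epcam only slightly in 4T1R2 (1415 against 1522). Cdh1 did not, with untreated means of 11139 in 4T1, 11245 in 4T1R1 and 13477 in 4T1R2. Summed over 7 macrophage markers, normalized counts were 388.4 to 448.6 in untreated 4T1, 753 to 852.6 in 4T1R1 and 906.4 to 976.9 in 4T1R2, nearly all from Cd14 and Cd68, while Adgre1, which defines macrophages, was at 0 in all untreated libraries and Ptprc, the pan-leukocyte marker, had 4 to 19 counts. The sum of 6 fibroblast markers was 690.4 to 770.7, 841.9 to 895.2 and 919.8 to 1043 in the same order, nearly all from Pdgfra, with Dcn and Col3a1 at 2 counts or fewer. After 17-DMAG the fibroblast sum was 398.8 to 421.3 in 4T1, 713.1 to 779.1 in 4T1R1 and 798.8 to 908.9 in 4T1R2, and the macrophage sum 342.5 to 389.9, 618.4 to 707.8 and 786.7 to 845.5. The part of these markers in the differences between populations and in the drug responses was not tested. Exons of 13 members overlap those of another listed gene, 12 of them on the opposite strand, and the use of strand in counting is not given in the sources used here. For the 2 members that changed most, these neighbors were weak: 1700101I11Rik over Gabarapl1 had 0 to 8 counts, and 3010026O09Rik over Sqstm1 had 92 to 241. Stronger neighbors included Fdft1, opposite 12.8% of the exon bases of Ctsb with 1399 to 4828 counts, and Zcchc14, opposite 0.8% of those of Map1lc3b with 3039 to 9535. Others were 3110002H16Rik, opposite 4.5% of those of Npc1 with 516 to 1097, and Nelfcd, opposite 0.7% of those of Ctsz with 853 to 1693. Gm49369, which has no row of its own in the counts, shares 34.4% of the exon bases of Ctsd on the same strand.

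Promoter sequence was available from RefSeq (GRCm38.p6) for 30 of the 37 members, in 37 windows reaching from 250 bases before to 50 bases after the annotated start. The CLEAR core TCACGTGA, the sequence that TFEB and TFE3 recognize, stood in the windows of 7 members, as 9 sites in all. It was present in 18.9% of the members' windows and in 0.974% of all 32851 windows. The first site of each gene is shown with 10 bases on either side, 5′ to 3′ on the strand of the gene, with the core in capitals. These are the members whose window holds the full core, and binding was not measured. In the GENCODE annotation of GRCm38, the sites of Atp6v0e, Ctsa, Ctsd and Mcoln1 lie within 5′ UTR exons of a transcript, that of Atp6v1a in an intron, that of Atp6v0d1 in no exon, and that of Gla opposite the first exon of Hnrnph2.
Atp6v1a, chr16:44139374-44139401: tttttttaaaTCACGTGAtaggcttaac
Atp6v0d1, chr8:105566051-105566078: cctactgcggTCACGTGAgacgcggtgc
Atp6v0e, chr17:26676388-26676415: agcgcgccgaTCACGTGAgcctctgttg
Ctsa, chr2:164833750-164833777: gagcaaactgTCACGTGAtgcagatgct
Ctsd, chr7:142387909-142387936: cgcccgcgtcTCACGTGAcccgttgagg
Gla, chrX:134601216-134601243: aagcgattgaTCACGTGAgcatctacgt
Mcoln1, chr8:3500463-3500490: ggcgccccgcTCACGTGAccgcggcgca
Outside the core the flanks differ from gene to gene. Atp6v1a, Atp6v0d1, Ctsd and Gla are read from the minus strand and the others from the plus strand.

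The shorter E-box CACGTG, which every CLEAR core contains, was found in windows of 12 members, or 32.4% of their windows against 7.15% of all. Lamp1, which encodes a major glycoprotein of the lysosomal membrane, has 4 of them in the 80 bases before its start and no full core, and this stretch lies outside annotated exons.
Lamp1, chr8:13159081-13159160: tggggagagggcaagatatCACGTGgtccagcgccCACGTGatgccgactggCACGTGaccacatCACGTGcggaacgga
The 2 members with the largest changes, Gabarapl1 and Sqstm1, held neither motif anywhere in their windows. They are shown for contrast, as the stretch just upstream of their first annotated exon, which for Gabarapl1 lies opposite an exon of 1700101I11Rik.
Gabarapl1, chr6:129533092-129533159: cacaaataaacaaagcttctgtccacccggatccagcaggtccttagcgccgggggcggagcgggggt
Sqstm1, chr11:50210828-50210889: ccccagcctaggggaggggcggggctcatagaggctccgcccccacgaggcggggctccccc
Lamp1 and Gabarapl1 are on the plus strand and Sqstm1 on the minus strand. The heat shock element of 3 units, the binding pattern of HSF1, was in no member window and in 0.603% of all windows. The antioxidant response element core TGACNNNGC, searched like the others on both strands, was in windows of 6 members (16.2% of their windows, 12.4% of all). A match is a string of letters in this window and no more, and a missing match says nothing of sites elsewhere.

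**Figure D1:**
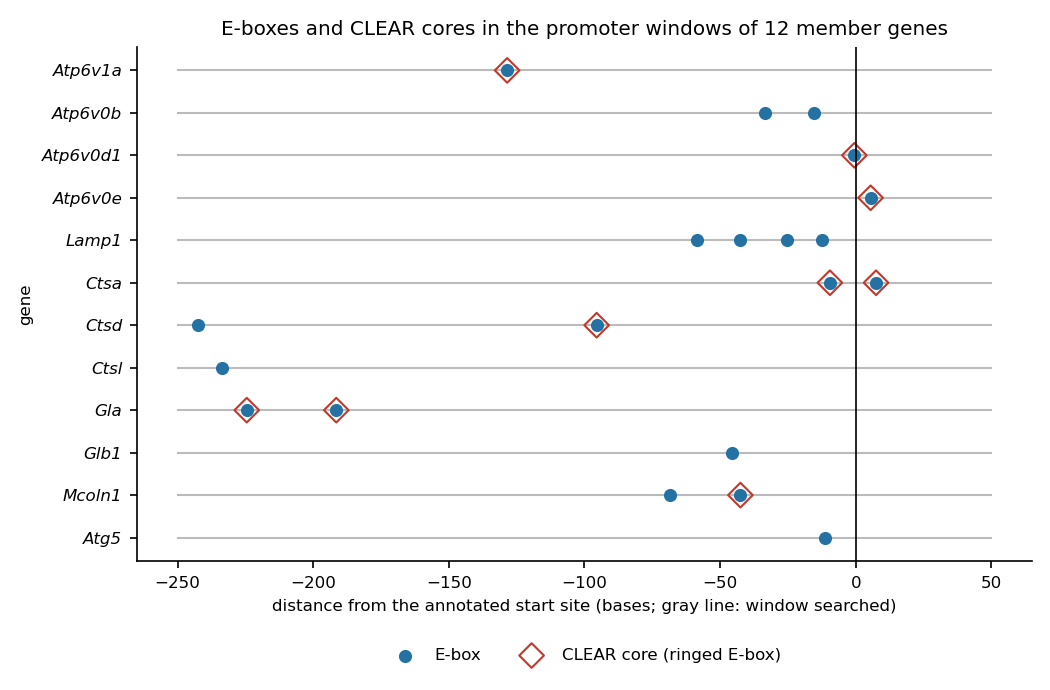
Positions of the E-box (blue point) and of the CLEAR core (red diamond around its E-box) in the promoter windows of the 12 members that hold one; the horizontal axis gives the distance from the annotated start in bases. Sites of Lamp1, Atp6v0b, Atp6v0d1, Atp6v0e, Ctsa, Glb1, Mcoln1 and Atg5 cluster within 80 bases of the start. Those of Gla and Ctsl and the farther E-box of Ctsd (from -245) lie near the far end of the window. The CLEAR core of Ctsd and that of Atp6v1a lie between.

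Levels of different genes were compared per length, as normalized counts per kilobase of exon, scaled also to library size. On that scale untreated 4T1 cells expressed cathepsin L (Ctsl) and Lamp1 above every other member, at 284.7 ± 9.6 and 239.1 ± 3.31 (SD, n = 3). Next came the proteases cathepsin Z (Ctsz) and cathepsin D (Ctsd), at 108.1 ± 0.869 and 106.1 ± 0.834. Lower in the order, the pump subunit genes Atp6v1e1 (30.4 ± 1.08) and Atp6v1a (30 ± 0.452) did not differ beyond their spread. Tfeb was the lowest member detected, at 1.53 ± 0.139, below Gla at 2.9 ± 0.263 and far below Tfe3 at 13.6 ± 1.24. Sqstm1 ranked sixth of the 37 genes at 70.8 ± 1.18, and in untreated 4T1R2 it reached 193.4 ± 8.34. All further values are normalized counts of 1 gene, that is counts scaled to a common library size, and log2 fold changes (log2FC) from edgeR's quasi-likelihood test with Benjamini-Hochberg adjustment over all genes tested, at a threshold of 0.05.

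In 4T1 cells, 17-DMAG raised 15 of the 36 tested members and lowered 2. Gabarapl1 and Sqstm1, both on the autophagy side, rose by far the most, Hexa and the pump subunit Atp6v1h rose 1.34-fold, and Tfeb fell to 0.506 of its level. Across all genes tested, 18.4% were higher and 18% lower, while among the members the shares were 41.7% and 5.56%. The median log2FC of the members was 0.094 against 0 for all genes. Most of these changes were small: only Gabarapl1, Sqstm1 and Tfeb passed 0.5 on the log2 scale. In these bulk samples, a change in the share of cells that express a gene and a change in RNA per cell cannot be told apart.

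Gabarapl1 encodes a GABARAP-family protein that is attached to the growing autophagosome membrane. In 4T1 it measured 505.5, 524.7 and 534.5 normalized counts untreated and 1467 and 1561 after 17-DMAG. In 4T1R1 it measured 847.8, 750.9 and 845.1 untreated and 1165, 1127 and 1159 after the drug. In 4T1R2 it measured 1036, 926 and 988.3 untreated and 1138, 1175 and 1037 after the drug. Treated libraries lay above the untreated libraries in all 3 populations, with a wide gap in 4T1 and ranges that nearly touched in 4T1R2. The rise was 2.9-fold in 4T1 (log2FC 1.53 ± 0.0685 (SE), adjusted p = 9.78e-22), 1.41-fold in 4T1R1 (adjusted p = 3.50e-08) and 1.13-fold in 4T1R2 (adjusted p = 0.0471). The last call was lost when untreated replicate 2 or 3 or treated replicate 1 or 2 of 4T1R2 was left out (adjusted p = 0.226, 0.0925, 0.148 and 0.227). Untreated levels were already 1.56-fold higher in 4T1R1 than in 4T1 (adjusted p = 6.72e-11) and 1.89-fold higher in 4T1R2 (adjusted p = 2.47e-15), so the 6 group means ran from 521.6 ± 14.7 in untreated 4T1 to 1514 ± 66.7 in treated 4T1 with all resistant groups in between.

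Sqstm1 encodes p62, a receptor that carries ubiquitinated cargo into autophagosomes and also takes part in NRF2 and NF-κB signaling. In 4T1 it measured 6081, 6283 and 6220 normalized counts untreated and 10771 and 11525 after 17-DMAG. In 4T1R1 it measured 14381, 14462 and 13984 untreated and 13664, 13970 and 13462 after the drug. In 4T1R2 it measured 17764, 16464 and 16540 untreated and 15744, 15354 and 15498 after the drug. Every library of the resistant populations, treated or not, stood above every library of 4T1, and the drug raised the gene in 4T1 without any such rise in the other two. The response was 1.8-fold in 4T1 (log2FC 0.85 ± 0.0336, adjusted p = 1.66e-23), log2FC -0.059 ± 0.0296 in 4T1R1 (adjusted p = 0.134) and a small fall in 4T1R2 (log2FC -0.12 ± 0.0294, adjusted p = 0.0034), the last of which did not pass without untreated replicate 1 of 4T1R2 (adjusted p = 0.072). Untreated 4T1R1 held 2.3-fold more than untreated 4T1 (SE of the log2FC 0.0306, adjusted p = 1.60e-30) and 4T1R2 held 2.73-fold more (log2FC 1.45 ± 0.0307, adjusted p = 2.24e-33).

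**Figure D2:**
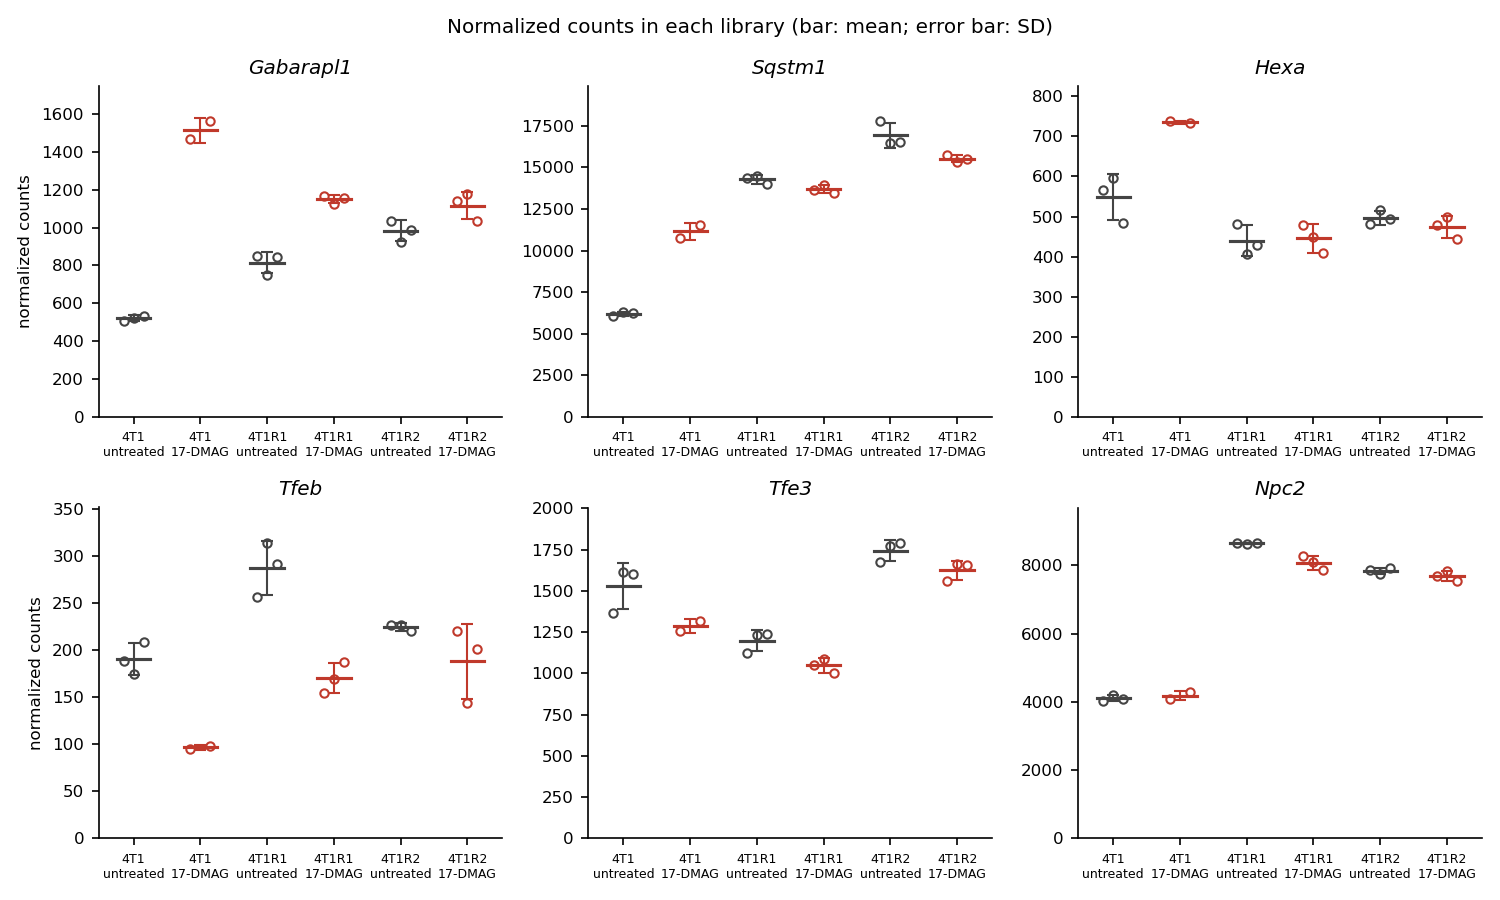
Normalized counts of 6 genes in each library (open circles), with the group mean (bar) and SD (error bar), untreated in gray and 17-DMAG in red; 17-DMAG-treated 4T1 has 2 points because a pair of its libraries was averaged. Sqstm1 and Npc2 are higher in every resistant library than in any 4T1 library, Gabarapl1 and Sqstm1 rise in treated 4T1, and Tfeb falls there to between 94.9 and 98.3.

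The regulators moved the other way under the drug. Tfeb measured 188.5, 174.2 and 208.7 normalized counts in untreated 4T1 and 94.9 and 98.3 after 17-DMAG. In 4T1R1 the values were 256.3, 313.9 and 291.6 untreated and 154.4, 169.3 and 187 treated, and in 4T1R2 they were 226.4, 226.9 and 219.9 untreated and 220.5, 143.7 and 200.7 treated. The treated libraries lay wholly below the untreated ones in 4T1 and 4T1R1 and overlapped them in 4T1R2. The log2FC of Tfeb was -0.98 in 4T1 (SE 0.162, adjusted p = 3.97e-06) and -0.76 in 4T1R1 (SE 0.128, adjusted p = 1.45e-05), and it was -0.26 ± 0.13 in 4T1R2 (adjusted p = 0.23, 95% interval -0.52 to 0.0057). Untreated Tfeb was 1.5-fold higher in 4T1R1 than in 4T1 (adjusted p = 1.24e-04), and in 4T1R2 its log2FC against 4T1 was 0.23 ± 0.131 (adjusted p = 0.134). Between the resistant populations it was lower in 4T1R2 (log2FC -0.36, adjusted p = 0.0218), a call that was lost without untreated replicate 2 or 3 of 4T1R1 or without untreated replicate 1 or 3 of 4T1R2 (adjusted p = 0.102, 0.0547, 0.0501 and 0.0599).

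Tfe3, the more abundant of the pair, measured 1368, 1615 and 1604 normalized counts in untreated 4T1 and 1257 and 1319 after 17-DMAG. In 4T1R1 it measured 1124, 1232 and 1240 untreated and 1053, 1089 and 1002 treated, and in 4T1R2 1674, 1770 and 1791 untreated and 1560, 1662 and 1658 treated. Within each population the treated libraries were below the untreated ones by a narrow margin, and the lowest values of all were in 4T1R1. The log2FC was -0.25 in 4T1 (SE 0.063, adjusted p = 0.0015). It was -0.19 in 4T1R1 (adjusted p = 0.0112), and this call was lost without untreated replicate 3 or treated replicate 3 of 4T1R1 (adjusted p = 0.0524 and 0.0682). In 4T1R2 the log2FC was -0.099 ± 0.055 (adjusted p = 0.282). Untreated Tfe3 was lower in 4T1R1 than in 4T1 (log2FC -0.35, adjusted p = 1.42e-06) and higher in 4T1R2 (log2FC 0.19, adjusted p = 0.00417, or 0.0884 without untreated replicate 1 of 4T1), and it was 1.45-fold higher in 4T1R2 than in 4T1R1 (adjusted p = 2.82e-10), a larger difference between the resistant populations than that of any other member.

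Among the lysosomal proteins, 8 of 15 rose in 17-DMAG-treated 4T1 and none fell by edgeR, nor at an unadjusted p under 0.05 or by DESeq2, although with total-count scaling Glb1 was called lower (log2FC -0.20, adjusted p = 0.00504). The share that rose by edgeR was 53.3%, against 18.4% of all genes. Hexa, the alpha subunit of the hexosaminidase that degrades GM2 ganglioside, measured 566.6, 596.3 and 484.7 normalized counts untreated and 737.3 and 732.3 treated, with no overlap, and rose 1.34-fold (log2FC 0.42 ± 0.0876, adjusted p = 1.45e-04). In 4T1R1 it measured 481.4, 406.8 and 430 untreated and 479.4, 448.6 and 408.4 treated, and in 4T1R2 480.5, 515.2 and 494.7 untreated and 478.2, 499.4 and 443.2 treated. The resistant libraries overlapped before and after the drug and stayed below treated 4T1.

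Lamp1 measured 16261, 16690 and 16611 normalized counts in untreated 4T1 and 18776 and 19244 after 17-DMAG, a 1.15-fold rise (log2FC 0.20 ± 0.0284, adjusted p = 1.89e-07). In 4T1R1 it measured 14603, 14596 and 14359 untreated and 15032, 15067 and 14517 treated, and in 4T1R2 15866, 15884 and 15791 untreated and 16553, 15973 and 16742 treated. The high values were thus those of treated 4T1 alone. Ctsd, an aspartic protease of the lysosome, measured 6940, 7050 and 6999 in untreated 4T1 and 7717 and 7950 after the drug (log2FC 0.16 ± 0.0342, adjusted p = 1.72e-04). In 4T1R1 it measured 7184, 6952 and 6775 untreated and 6825, 6719 and 6547 treated, and in 4T1R2 7993, 7670 and 7626 untreated and 8086, 7652 and 7999 treated. Untreated 4T1R2 reached the level of treated 4T1, while untreated 4T1R1 overlapped untreated 4T1. The other 5 lysosomal genes that rose in 4T1 did so by log2FC 0.099 to 0.26: Gla, the galactosidase missing in Fabry disease, Lamp2, a membrane protein also used in chaperone-mediated autophagy, Psap, the precursor of the saposin activators, and the proteases Ctsb and Ctsl. Of these, Gla did not pass without untreated replicate 1 or 3 or treated replicate 2 of 4T1 (adjusted p = 0.0664, 0.195 and 0.0721), nor with total-count scaling (0.282), no filter (0.0577), DESeq2 (0.0518) or a fit of only the groups compared (0.0619), and Psap did not pass without untreated replicate 1 (0.0745).

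Of the pump, 4 of 11 subunit genes rose in 4T1 and none was lower by edgeR (nor at an unadjusted p under 0.05 or by DESeq2), and all 11 log2FC values were above 0. The share that rose was 36.4%, against 18.4% of all genes. Atp6v1h, a regulatory subunit of the V1 sector, led with a 1.34-fold rise (log2FC 0.42 ± 0.0516, adjusted p = 1.01e-08), and it rose again in 4T1R1 (log2FC 0.24 ± 0.0474, adjusted p = 1.21e-04). The others were Atp6v1g1 (log2FC 0.20), Atp6v1c1 (0.17) and Atp6v1b2 (0.11), which encode stalk, connecting and nucleotide-binding subunits of the same sector. Of the 8 autophagy genes, 3 (37.5%) rose in 4T1, Gabarapl1, Sqstm1 and Wipi1, which binds phosphoinositide at the forming autophagosome (log2FC 0.26 ± 0.0604, adjusted p = 6.50e-04). Map1lc3b, which encodes LC3B, did not pass, at 1904, 1919 and 1954 normalized counts untreated and 1969 and 1956 treated (log2FC 0.028 ± 0.0478, adjusted p = 0.707, 95% interval -0.069 to 0.12), although the groups did not overlap.

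These counts moved with the libraries used and with the scaling. Without replicate 3 of treated 4T1, 1 sample is left in that group, which is then assumed to vary like the other groups, and 9 members were higher in place of 15. Atp6v1b2, Atp6v1c1, Atp6v1g1, Lamp2, Ctsb and Ctsl then had adjusted p = 0.122, 0.0645, 0.0531, 0.0739, 0.112 and 0.0614, Atp6v1b2 was also lost without untreated replicate 1 (0.223), and 7 of the 15 kept their call whichever library was left out. With libraries scaled by total counts alone, 5 members were higher and 3 lower, the median of all genes in 4T1 moved to -0.11 and that of the members to -0.022, and the calls over all genes went from 2482 higher and 2430 lower to 1194 and 4323. The ribosomal transcript Rn45s took 10.7% to 11.4% of counts in untreated 4T1 and 13.2% to 14.1% after the drug, and its part in that shift was not tested. The 5 genes that rose under every scaling, test and left-out library were Gabarapl1, Sqstm1, Atp6v1h, Hexa and Lamp1, and the falls of Tfeb and Tfe3 held as well, whereas Atp6v1b2, Ctsb, Ctsl and Psap turned slightly negative under total counts (log2FC -0.0014, -0.016, -0.011 and -0.0048).

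In 4T1R1, 17-DMAG raised 5 members and lowered 9, and in 4T1R2 it raised 1 and lowered 1. Across all genes 13.9% were higher and 14.3% lower in 4T1R1, and 6.17% and 4.35% in 4T1R2, so the members' shares of 13.9% and 25% and of 2.78% and 2.78% were near or below the background except for the falls in 4T1R1. Their median log2FC was -0.036 in 4T1R1 and 0.0087 in 4T1R2, against -0.0086 and -0.0019 for all genes. The 5 that rose in 4T1R1 were Gabarapl1, Atp6v1h, Atp6v1c1, Lamp2 and Ctsl. Besides the pair of regulators, the genes that fell there were Ulk1, Map1lc3b, Atp6v1f, Atp6v0e, Ctsz, Psap and Npc2.

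Ulk1 encodes the kinase that starts autophagosome formation. It measured 665.5, 713.4 and 642.6 normalized counts in untreated 4T1R1 and 490.9, 541.7 and 533.4 after 17-DMAG, a log2FC of -0.37 without overlap (SE 0.0782, adjusted p = 3.38e-04). In 4T1 it measured 787.2, 783.3 and 640.8 untreated and 686.6 and 728 treated, and in 4T1R2 647.4, 624.7 and 559.1 untreated and 594.9, 587.7 and 548.7 treated. In these 2 populations the groups overlapped and the log2FC was -0.06 (adjusted p = 0.631) and -0.082 (adjusted p = 0.583). The difference of the 4T1R1 response from that of 4T1 was -0.31 ± 0.114 (adjusted p = 0.0545), short of the threshold. It passed without untreated replicate 1 or 2 or treated replicate 1 of 4T1, or untreated replicate 3 of 4T1R1 (adjusted p = 0.0324, 0.032, 0.0445 and 0.0399), and also without the filter (0.047), with 18 separate libraries (0.0451) and with the replicate number as a block on them (0.0403).

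The count of 9 falls in 4T1R1 went to 5 without replicate 3 of treated 4T1R1 and to 4 with total-count scaling, where the calls over all genes went from 1873 higher and 1938 lower to 2357 and 1316. Falls that held under every alternative were those of Tfeb, Ulk1 and Atp6v1f. Among the other calls, Map1lc3b was lost without untreated replicate 3 or treated replicate 1 of 4T1R1 (adjusted p = 0.0708 and 0.0945), and Lamp2 without untreated replicate 2 (0.0797). Atp6v0e was lost without any of 4 libraries of 4T1R1 (adjusted p up to 0.171), Psap without any of 3 (up to 0.0755) and Ctsz without either of 2 (up to 0.106). Npc2 was lost without treated replicate 3 (0.0856). In 4T1R2 the single rise was Gabarapl1 and the single fall Sqstm1. The rise was not called without untreated replicate 2 or 3 or treated replicate 1 or 2 of 4T1R2 and was joined by Ctsl without treated replicate 3 (2 genes), and the fall was lost without untreated replicate 1. Total-count scaling left 0 members higher and 3 lower in 4T1R2 and moved the calls over all genes from 833 higher and 588 lower to 367 and 1151.

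Whether the response itself differed was tested as the difference between responses. Between 4T1R1 and 4T1, 13 of 36 members had a weaker or more negative response in 4T1R1 and none a stronger one (none at an unadjusted p under 0.05, none by DESeq2). Between 4T1R2 and 4T1, 8 were more negative and 1, Tfeb, less negative. All genes gave 9.21% higher and 9.05% lower in the first of these tests and 9.66% and 8.1% in the second, against members' shares of 0% and 36.1%, and of 2.78% and 22.2%. The median difference over the members was -0.13 and -0.092, against -0.0025 and -0.00049 over all genes. Both tests use the same 4T1 libraries, so their lists are not independent of each other.

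Gabarapl1 differed most, with a response smaller by 1.04 ± 0.0924 on the log2 scale in 4T1R1 (adjusted p = 1.70e-11) and by 1.35 ± 0.0918 in 4T1R2 (adjusted p = 2.95e-15). Sqstm1 followed, with differences of -0.91 ± 0.0449 (adjusted p = 2.24e-19) and -0.97 ± 0.0447 (adjusted p = 1.14e-20). For Hexa the difference was -0.40 ± 0.122 in 4T1R1 (adjusted p = 0.0168) and -0.49 ± 0.121 in 4T1R2 (adjusted p = 0.00304). The first of the Hexa values did not pass without replicate 3 of untreated 4T1, replicate 3 of treated 4T1, replicate 1 of untreated 4T1R1 or replicate 3 of treated 4T1R1 (adjusted p = 0.0741, 0.0562, 0.0707 and 0.0584). Tfeb went the opposite way in 4T1R2, where its fall was smaller than in 4T1 by 0.73 ± 0.208 (adjusted p = 0.0108), while in 4T1R1 the difference was 0.23 ± 0.208 (adjusted p = 0.519, 95% interval -0.19 to 0.65).

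Lamp1, Ctsd, Psap and Wipi1 were called in both tests with differences between -0.14 and -0.34, Atp6v1h in 4T1R2 (-0.28, adjusted p = 0.00363), and Atp6v1f, Atp6v0b, Atp6v0d1, Ctsa, Ctsz and Npc2 in 4T1R1. The count in 4T1R1 went from 13 to 8 without replicate 3 of untreated 4T1 or of treated 4T1R1, to 7 without replicate 3 of treated 4T1 and to 2 with total-count scaling, under which 2 members became higher and the calls over all genes went from 1244 higher and 1222 lower to 3532 and 419. Without that replicate of treated 4T1, the calls lost in 4T1R1 were those of Atp6v0b, Atp6v0d1, Ctsa, Ctsz, Hexa and Npc2 (adjusted p = 0.0877, 0.0927, 0.146, 0.282, 0.0562 and 0.316), and those lost in 4T1R2 were Lamp1, Ctsd, Psap and Wipi1 (0.0658, 0.23, 0.0571 and 0.111). In 4T1R2 the count went from 8 to 4 both without replicate 3 of treated 4T1 and with total-count scaling (over all genes, from 1305 higher and 1094 lower to 2091 and 632), and the count higher went from 1 to 2 without replicate 1 of untreated 4T1, where Tfe3 joined Tfeb. Gabarapl1 and Sqstm1 in both tests, and Hexa, Atp6v1h and Tfeb in 4T1R2, were called under every alternative.

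**Figure D3:**
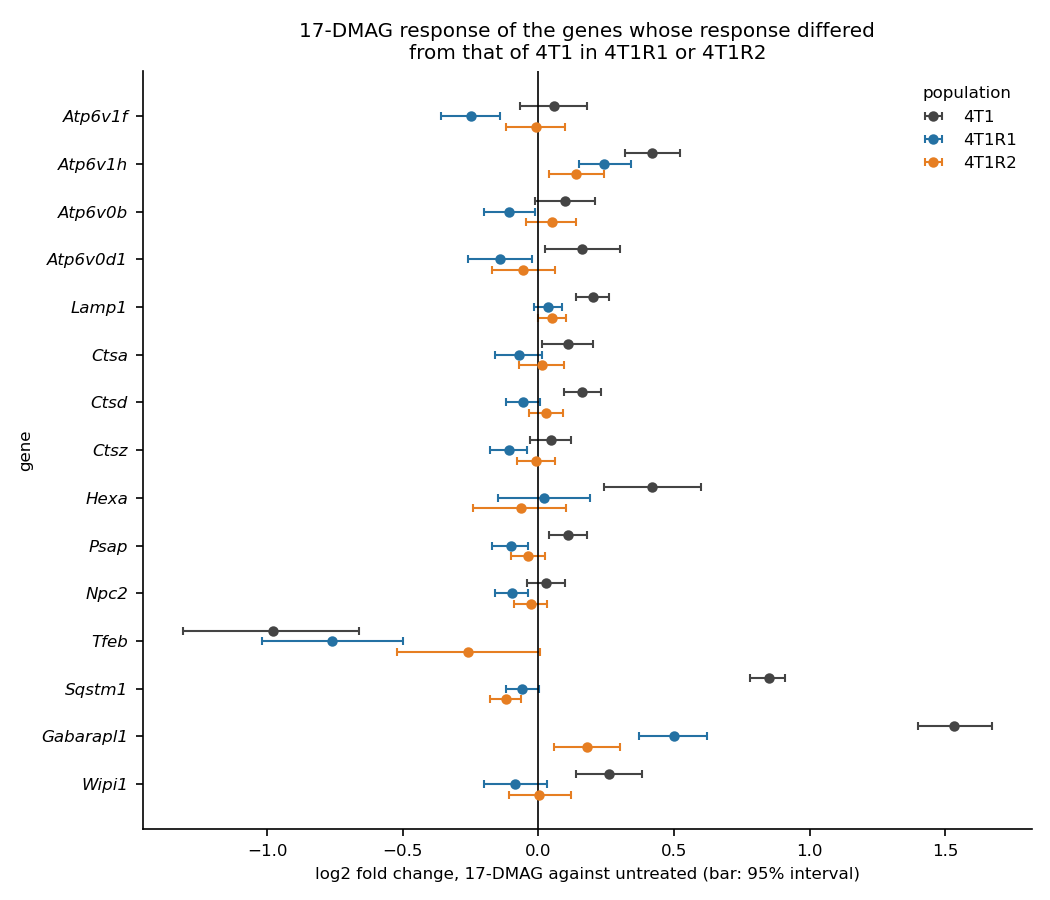
Response to 17-DMAG (log2 fold change, horizontal axis, with 95% intervals) in 4T1 (gray), 4T1R1 (blue) and 4T1R2 (orange) for the 15 members whose response differed from that of 4T1 in at least 1 resistant population. Gabarapl1 and Sqstm1 separate most widely, at 1.53 and 0.85 in 4T1 against 0.18 and -0.12 in 4T1R2, and for every gene except Tfeb the 4T1 point is the rightmost.

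Without the drug, both resistant populations held more mRNA of most members than 4T1. In untreated 4T1R1, 19 of 36 members were higher and 7 lower, and in 4T1R2 23 were higher and 6 lower. The largest differences were those of Sqstm1, Npc2, Gla and Gabarapl1, while Ctsl, Gabarapl2, Wipi1 and Lamp1 were lower in both. Over all genes 25.2% were higher and 27.5% lower in 4T1R1, and 25.6% and 26.9% in 4T1R2, so the members' shares higher, 52.8% and 63.9%, were above the background and those lower, 19.4% and 16.7%, below it. Their median log2FC was 0.14 in 4T1R1 and 0.20 in 4T1R2, against 0.0075 and 0.0068 for all genes. The 2 comparisons share the untreated 4T1 libraries, and in that with 4T1R1 the library identifiers differ in series as well. All 26 calls in 4T1R1 held under every scaling, test and left-out library, as did 19 of the 23 higher and 5 of the 6 lower calls in 4T1R2. The one lower call that did not was Lamp1 in 4T1R2 (log2FC -0.06, adjusted p = 0.0476), which was lost without any of 5 libraries (adjusted p up to 0.132) and under 6 other alternatives (up to 0.224).

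Npc2, which binds cholesterol inside the lysosome and hands it to the membrane protein Npc1, measured 4027, 4197 and 4071 normalized counts in untreated 4T1, 8652, 8628 and 8657 in 4T1R1 and 7861, 7737 and 7914 in 4T1R2. After 17-DMAG the values were 4088 and 4279 in 4T1, 8271, 8112 and 7860 in 4T1R1 and 7693, 7827 and 7527 in 4T1R2. The lowest resistant library was far above the highest 4T1 library. The untreated log2FC was 1.08 ± 0.0306 in 4T1R1 (adjusted p = 8.54e-29) and 0.94 ± 0.0308 in 4T1R2 (adjusted p = 1.53e-26). Its partner Npc1 was higher by 0.42 ± 0.0514 in 4T1R1 (adjusted p = 4.79e-09) and by 0.18 ± 0.0528 in 4T1R2 (adjusted p = 0.0039, or 0.0507 without replicate 1 of untreated 4T1).

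Gla measured 288, 309.9 and 258.5 normalized counts in untreated 4T1, 485.3, 505.8 and 508 in 4T1R1 and 469, 495.6 and 466.7 in 4T1R2. With 17-DMAG it measured 357 and 321.9 in 4T1, 498.5, 530.1 and 451.5 in 4T1R1 and 449.4, 498.6 and 526.9 in 4T1R2. Resistant libraries again stood above those of 4T1, treated or not. The untreated difference was 0.81 ± 0.0879 (adjusted p = 2.55e-10) in 4T1R1 and 0.74 ± 0.0896 (adjusted p = 3.27e-09) in 4T1R2. Of the other lysosomal genes, Psap, Ctsb, Ctsa, Ctsz and Mcoln1, the last of which encodes the calcium channel mucolipin 1, were higher in both resistant populations by log2FC 0.19 to 0.51. Glb1, the lysosomal beta-galactosidase, was higher in 4T1R1 (log2FC 0.31 ± 0.05, adjusted p = 1.37e-06) and not called in 4T1R2 (0.045 ± 0.0514, adjusted p = 0.486). Its exons share 165 bases with Tmppe on the same strand, which had 997 to 2184 counts. Ctsl, the most abundant member, was lower by 0.46 on the log2 scale in 4T1R1 (adjusted p = 3.06e-19) and by 0.19 in 4T1R2 (adjusted p = 3.28e-08). Neu1, a sialidase, was called in none of the 8 comparisons, but passed as lower under 17-DMAG in 4T1R1 without treated replicate 2 (log2FC -0.29, adjusted p = 0.0334) and in 4T1R2 with total-count scaling (-0.31, adjusted p = 0.0233).

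In the V-ATPase, 6 of 11 subunit genes were higher in untreated 4T1R1 and 9 of 11 in 4T1R2. These shares were 54.5% and 81.8%, against 25.2% and 25.6% of all genes. Atp6v1d, Atp6v1f, Atp6v0b and Atp6v0d1, which belong to the central stalk and the membrane sector, were higher by 0.34 to 0.38 in 4T1R1 and by 0.44 to 0.52 in 4T1R2. Atp6v1a, the catalytic subunit, measured 3963, 3878 and 3993 normalized counts in untreated 4T1, 4368, 4089 and 4330 in 4T1R1 and 5312, 5262 and 5201 in 4T1R2. After 17-DMAG it measured 4130 and 4066, 4330, 4227 and 4167, and 5501, 5349 and 5185 in the same order. Untreated libraries were lowest in 4T1 and highest in 4T1R2 without overlap, and the drug made no difference that passed the test. Against 4T1 its log2FC was 0.11 ± 0.0338 in 4T1R1 (adjusted p = 0.00494) and 0.41 ± 0.0337 in 4T1R2 (adjusted p = 8.89e-14). Atp6v1h was the only subunit gene called lower, in 4T1R2 by 0.22 on the log2 scale (SE 0.049, adjusted p = 2.30e-04). In 4T1R1, 5 of the 11 were not called, and 4 of the 11 log2FC values were below 0. Calls of Atp6v1c1 and Atp6v1e1 in 4T1R2 were each lost without some single library: Atp6v1c1 without untreated replicate 1 of 4T1 (adjusted p = 0.19) or untreated replicate 1 or 2 of 4T1R2 (0.18 and 0.0553), and Atp6v1e1 without untreated replicate 3 of 4T1 (0.0642) or untreated replicate 2 of 4T1R2 (0.0555).

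**Figure D4:**
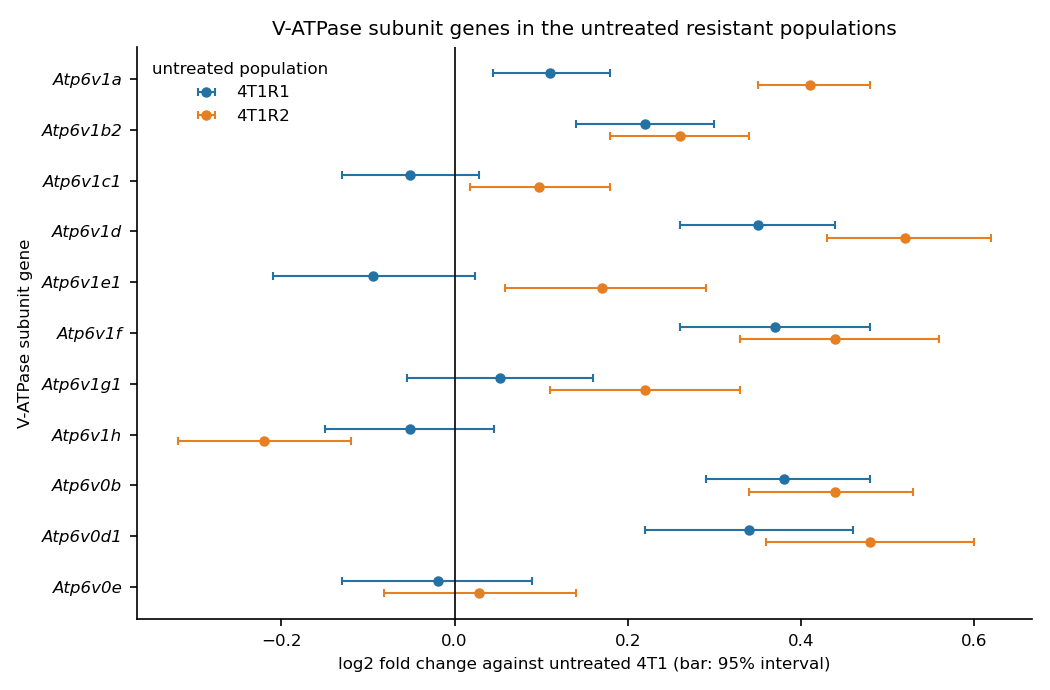
Difference of each V-ATPase subunit gene between an untreated resistant population and untreated 4T1 (log2 fold change on the horizontal axis, with 95% intervals), 4T1R1 in blue and 4T1R2 in orange. Most points lie to the right of 0, up to 0.52 for Atp6v1d in 4T1R2. To the left lie Atp6v1h in 4T1R2 (-0.22) and, in 4T1R1, Atp6v1e1 (-0.094), Atp6v1c1 (-0.051), Atp6v1h (-0.051) and Atp6v0e (-0.019).

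Of the 8 autophagy genes, 3 were higher and 3 lower in each untreated resistant population, or 37.5% each way. A near-even split was also that of all genes, with 25.2% higher and 27.5% lower in 4T1R1 and 25.6% and 26.9% in 4T1R2. Sqstm1, Gabarapl1 and Map1lc3b were higher in both. Map1lc3b measured 1904, 1919 and 1954 normalized counts in untreated 4T1, 2140, 2123 and 2209 in 4T1R1 and 2434, 2427 and 2612 in 4T1R2, ranges that did not touch. Under 17-DMAG it measured 1914, 1979 and 2017 in 4T1R1 and 2457, 2298 and 2269 in 4T1R2. Its log2FC against 4T1 was 0.16 ± 0.0427 in 4T1R1 (adjusted p = 0.00125) and 0.37 ± 0.0427 in 4T1R2 (adjusted p = 1.03e-09). Gabarapl2, a paralog of Gabarapl1, was lower by 0.44 on the log2 scale in 4T1R1 (adjusted p = 6.46e-07) and by 0.31 in 4T1R2 (adjusted p = 2.43e-04), and Wipi1 was lower by 0.33 (adjusted p = 3.24e-06) and by 0.31 (adjusted p = 1.62e-05). The remaining lower gene was Becn1, of the lipid kinase complex that nucleates the membrane, in 4T1R1 (log2FC -0.13, adjusted p = 0.00974) and Ulk1 in 4T1R2 (-0.27, adjusted p = 0.00333, with overlapping libraries). Atg5, part of the enzyme complex that lipidates LC3, was called in no comparison.

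The resistant populations also differed from each other. In untreated 4T1R2, 16 members were higher and 5 lower than in 4T1R1, a share of 44.4% and 13.9%, against 19.7% and 19% of all genes, and with a median log2FC of 0.11 against -0.0079 for all genes. Tfe3, Atp6v1a (0.30 ± 0.0335, adjusted p = 1.04e-09) and Ctsl (0.28 ± 0.0252, adjusted p = 7.38e-12) led those higher, and Tfeb, Glb1 (-0.27, adjusted p = 4.04e-05) and Npc1 (-0.24, adjusted p = 2.22e-04) those lower. Of these calls 13 and 4 were kept whichever library was left out. The library identifiers of the 2 populations also differ in series.

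**Figure D5:**
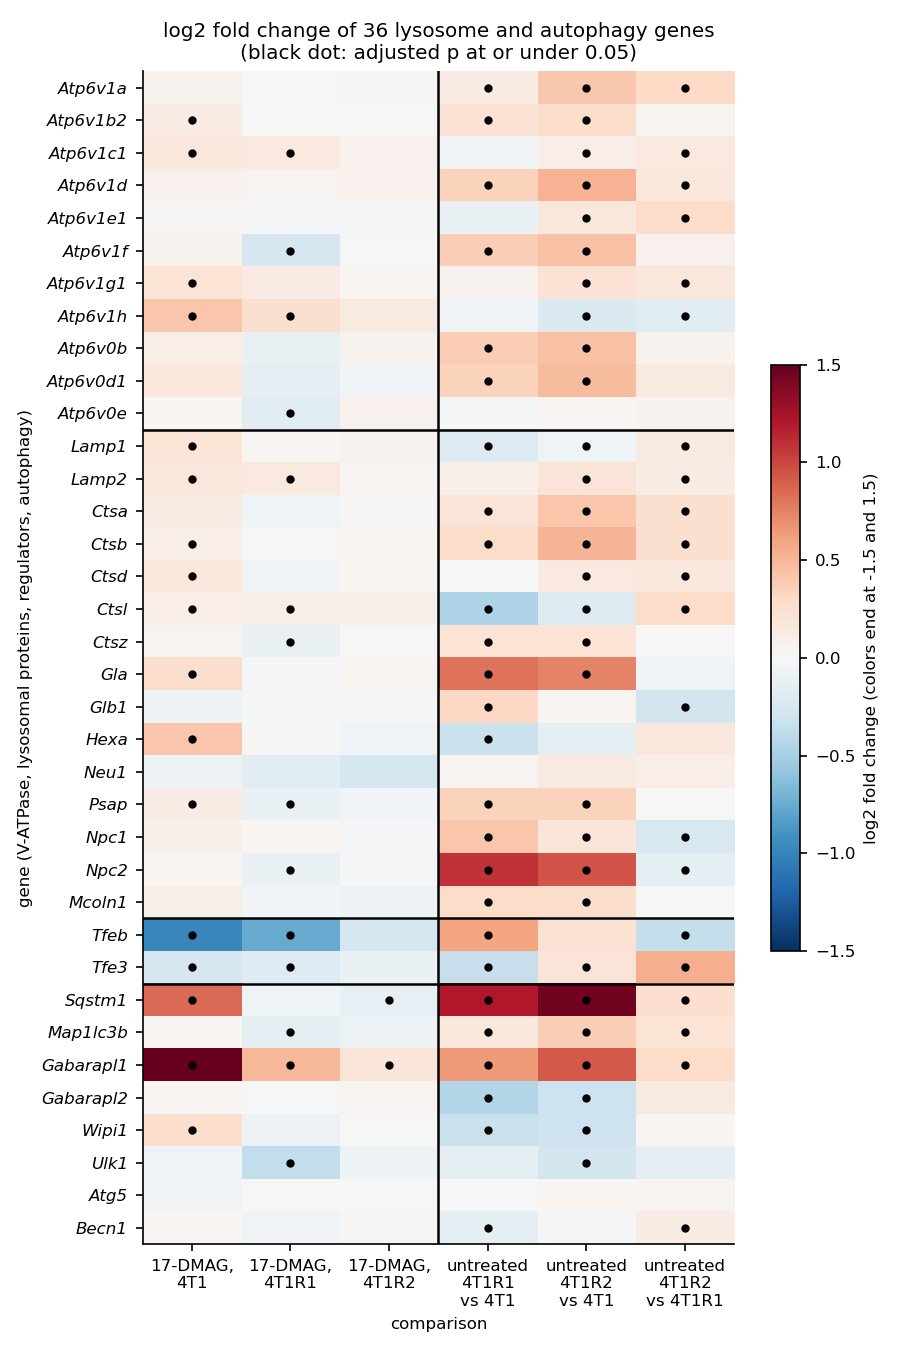
Log2 fold change of the 36 tested members (rows, grouped from top as V-ATPase, lysosomal proteins, regulators and autophagy) in the 3 responses to 17-DMAG and the 3 comparisons of untreated populations (columns); red is higher, blue lower, and a black dot marks an adjusted p under the threshold. The response column of 4T1 holds 15 red and 2 blue dotted cells and that of 4T1R2 only 2 dotted cells, while the columns of the untreated resistant populations against 4T1 hold 26 and 29.

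The 7 members with a CLEAR core in their window were followed as a set. In untreated 4T1R1 5 of the 7 were higher and in 4T1R2 6 of the 7, with a median log2FC of 0.19 and 0.41, where 25.2% and 25.6% of all genes were higher. The 17 members whose window lacks even the E-box gave 9 higher and 4 lower in 4T1R1 and 11 and 3 in 4T1R2, with medians of 0.16 and 0.21. All 12 members with an E-box, which include the 7, gave 7 higher and 2 lower in each population. Their medians, 0.15 and 0.21, were near those of the 17. Over all genes, 27.5% were lower in 4T1R1 and 26.9% in 4T1R2. After 17-DMAG in 4T1, where 18.4% of all genes were higher and 18% lower, Ctsd and Gla were called higher among the 7 (median log2FC 0.11), and 6 rose and 2 fell among the 17 (median 0.046). Among the 12 with an E-box, 4 rose and 0 fell (median 0.099). The calls of Ctsd and Gla were both lost with total-count scaling (adjusted p = 0.324 and 0.282).

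A wider list of 141 other genes of these pathways was examined, of which 130 were tested. In 17-DMAG-treated 4T1, 35 were higher and 16 lower (median log2FC 0.049), or 26.9% and 12.3% against 18.4% and 18% of all genes. In 4T1R1 15 were higher and 19 lower (11.5% and 14.6%, near the 13.9% and 14.3% of all genes), and in 4T1R2 5 and 7 (3.85% and 5.38%, against 6.17% and 4.35%). Untreated 4T1R1 had 51 higher and 23 lower than 4T1, and 4T1R2 had 61 and 33, with medians of 0.096 and 0.16. The shares higher, 39.2% and 46.9%, stood above the 25.2% and 25.6% of all genes, while those lower, 17.7% and 25.4%, were below 27.5% in 4T1R1 and near 26.9% in 4T1R2. By part, the medians in 4T1R1 and 4T1R2 were 0.46 and 0.42 for V-ATPase genes and 0.15 and 0.31 for signaling genes. They were 0.17 and 0.19 for autophagy receptors and 0.071 and 0.14 for other autophagy genes. For lysosomal hydrolases they were 0.093 and 0.018, and for membrane and sorting genes -0.0023 and 0.041. The hydrolases had 13 higher and 12 lower in 4T1R2 (38.2% and 35.3%).

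Under the drug Sesn2, a stress-induced inhibitor of mTORC1, rose in 4T1 from 160 ± 25.1 to 505.1 ± 66.2 normalized counts (log2FC 1.66 ± 0.121, adjusted p = 8.40e-15). Wdr45, a relative of Wipi1, rose by 0.55 (adjusted p = 9.95e-07), and Bnip3, a mitophagy receptor, and Arsa, the sulfatase ARSA, fell by 0.71 and 0.41 (adjusted p = 1.49e-06 and 1.45e-06). Bnip3 fell in 4T1R1 as well (log2FC -0.40, adjusted p = 7.53e-04) and in 4T1R2 (-0.29, adjusted p = 0.0244). In 4T1R1 the protease gene Atg4c (0.48, adjusted p = 1.90e-04) and Ostm1, the partner of the lysosomal chloride transporter (0.34, adjusted p = 1.96e-04), rose and the acid lipase gene Lipa fell (-0.33, adjusted p = 3.11e-04). In 4T1R2 Ostm1 (0.26, adjusted p = 0.00927) and the autophagosomal SNARE gene Stx17 (0.20, adjusted p = 0.0269) rose and the sorting receptor gene Sort1 fell (-0.53, adjusted p = 0.0402).

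Without the drug, Lipa stood at 367.8 ± 16.1 normalized counts in 4T1, 1001 ± 100.5 in 4T1R1 and 832.8 ± 18.4 in 4T1R2 (log2FC 1.45 and 1.18, adjusted p = 7.28e-20 and 1.15e-16). Beside Lipa, Sesn2 was higher in 4T1R1 (1.25, adjusted p = 2.64e-12) and Ddit4, another inhibitor of mTORC1, in 4T1R2 (1.40, adjusted p = 2.72e-19). The lipid scramblase gene Atg9b was lower in both, at 466.7 ± 50.6 and 457.6 ± 55.3 against 1148 ± 27.7 (log2FC -1.30 and -1.33, adjusted p = 8.85e-18 and 6.99e-18), as were the protease gene Ctsh in 4T1R1 (-0.94, adjusted p = 7.20e-20) and the ion channel gene Tpcn1 in 4T1R2 (-1.04, adjusted p = 1.37e-20). Between the untreated resistant populations, 29 of the 130 tested genes of this list were higher in 4T1R2 and 27 lower. These shares, 22.3% and 20.8%, were near the 19.7% and 19% of all genes, with a median log2FC of 0.016, unlike those of the members. The list's 34 lysosomal hydrolase genes gave 7 higher and 13 lower, and its 21 membrane and sorting genes 6 and 2. Of single genes, Atp6ap2, an accessory subunit of the pump (0.80, adjusted p = 1.26e-16), and Lamtor5 of the lysosomal Ragulator complex (0.72, adjusted p = 1.98e-12) were higher in 4T1R2, and Naglu (-0.83, adjusted p = 1.13e-07) and Stx17 (-0.49, adjusted p = 7.21e-09) were lower.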

How the data were processed

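Total RNA, depleted of ribosomal RNA, was sequenced from 18 libraries in 6 groups. Per the labels, the authors aligned reads with STAR to mm10 and counted them per gene symbol with featureCounts (Subread 1.6.2), and the counts were deposited unnormalized. Strand setting and treatment of multimapping reads are not given in the sources used here. The members and lists were chosen with earlier results of these data known. Counts were filtered with filterByExpr, scaled by TMM and tested with edgeR 4.0.16 (quasi-likelihood, R 4.3.3) in 1 fit over all groups, with Benjamini-Hochberg adjustment over 13507 genes at 0.05. The code was tested on simulated data. Replicates 1 and 2 of 17-DMAG-treated 4T1 were averaged and rounded, which left 17 libraries. Alternatives were other scalings and filters, DESeq2 1.42.0, a fit of only the groups compared, 18 separate libraries, a replicate block and leaving out each library. Values per library are given for the 3 members with the largest change among those past the threshold in each comparison (without overlap between groups, for the 6 comparisons of groups) and always for Tfeb, Tfe3, Sqstm1, Map1lc3b, Lamp1 and Ctsd. Of the pathway list, the 2 genes with the largest change in each direction were named, among those past the threshold, without overlap and averaging 100 normalized counts or more in whichever group was higher. Promoter windows came from RefSeq. Intervals and totals cover counting error and the spread between these cultures only.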

Additional observations from a re-analysis of the deposited data

Results flagged for a closer look

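The response to 17-DMAG differed between populations for 15 members, by the test of the difference itself (edgeR's quasi-likelihood test with Benjamini-Hochberg adjustment). Between 4T1R1 and 4T1 the differences in log2 fold change were -1.04 for Gabarapl1, -0.91 for Sqstm1, -0.40 for Hexa, -0.34 for Wipi1, -0.30 for Atp6v1f, -0.30 for Atp6v0d1, -0.22 for Ctsd, -0.21 for Psap, -0.21 for Atp6v0b, -0.18 for Ctsa, -0.17 for Lamp1, -0.16 for Ctsz and -0.13 for Npc2. Between 4T1R2 and 4T1 they were -1.35 for Gabarapl1, -0.97 for Sqstm1, -0.49 for Hexa, -0.28 for Atp6v1h, -0.25 for Wipi1, -0.15 for Psap, -0.15 for Lamp1, -0.14 for Ctsd and 0.73 for Tfeb. Both sets of differences use the same 4T1 libraries. No group had more than 3 samples, so none was searched for single outlying samples.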

How the results depend on the processing

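Scaling by total counts changed the counts of members most. It gave 5 higher in 4T1 under 17-DMAG, 4 lower in 4T1R1, 0 higher and 3 lower in 4T1R2, 2 higher and 2 lower in the response of 4T1R1 minus that of 4T1, and 4 lower in that of 4T1R2 minus 4T1. It also turned the 4T1 response of Atp6v1b2 (-0.0014), Ctsb (-0.016), Ctsl (-0.011) and Psap (-0.0048), and the difference of 4T1R1 from 4T1 for Ctsl (0.14, edgeR adjusted p = 0.0114) and Npc2 (0.023). In 4T1R2, 2 members were higher without the filter, 2 by DESeq2 and 2 in a fit of only the groups compared. Leaving out each library gave 9 to 15 higher in 4T1, 5 to 9 lower in 4T1R1, 0 to 2 higher and 0 to 1 lower in 4T1R2, 7 to 14 lower and 4 to 8 lower in the responses of 4T1R1 and 4T1R2 minus that of 4T1, and 1 to 2 higher in the last. Of 131 called member values, 43 were lost in at least 1 alternative, and 23 uncalled values passed in at least 1. The cause was not tested. Same-numbered untreated and treated libraries had correlations of -0.0195 to 0.0454, so no shared effect of the replicate number was seen. With 3 libraries per group, this cannot show whether the cultures were paired. With the number as a replicate block (18 separate libraries), 6 member values passed that had not, 2 no longer passed and 280 were as before. In treated 4T1, 2 samples limit the precision of every comparison with that group.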
